A study of Mus musculus with 5 samples.

Results

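The midbrain patterning factors are transcription factors that shape the ventral midbrain (VM) and its dopamine neurons, and 10 of them were read here out of 20178 transcripts listed in each library: En1, En2, Otx2, Lmx1a, Lmx1b, Foxa1, Foxa2, Nr4a2 (the gene of Nurr1), Pitx3 and Pax3. They were chosen by gene symbol, through the RefSeq accession of each row, and each was listed as exactly 1 transcript. In the embryo, Otx2 marks the forebrain and midbrain, and En1 and En2 mark the region of the border between midbrain and hindbrain. Foxa1, Foxa2, Lmx1a and Lmx1b act in the floor plate, where dopamine neurons arise, Nr4a2 and Pitx3 act later in the dopamine neuron itself, and Pax3 belongs to the dorsal neural tube and the neural crest. Glia cultured from a brain region can keep part of the factor code of that region, and Nurr1 and Foxa2 were the factors delivered by virus in this study.

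RNA-seq was done on 5 libraries of cultured cells of ICR mice at passage 2, with 1 library per condition. The labels call the glia astrocyte progenitor cells, and how many animals gave each culture is not given in the sources used here. Astrocytes from the VM of pups at postnatal day 5 gave 3 libraries, namely without virus, titled C and titled NF, and cortical (Ctx) astrocytes of the same age and Ctx neural precursor cells (NPCs) of embryonic day 12 gave 1 library each without virus. The mock virus was the empty lentiviral vector, and the factors were Nurr1 and Foxa2 cDNAs, each driven by the CMV promoter, which is active in most cell types. The paper marks Nurr1 as mouse and Foxa2 as rat, but the same sentence calls all of the genes mouse. Counted reads were 20010818 to 22554835 per library. The labels of the libraries titled C and NF contradict each other. The title NF goes with a treatment entry naming the mock virus, and the title C with an entry naming Nurr1 and Foxa2. Both are therefore called by their titles, and every direction between them rests on those titles. With 1 library per condition there was no replicate and no test of conditions. Intervals are exact and cover 95% counting error of the reads only.

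The culture labels were set beside marker genes. All 10 astrocyte markers had an FPKM (reads scaled to transcript length and library total) over 1 in every library, with a summed level of 1682 to 1967 CPM (reads per 1000000 counted reads) in the VM libraries, 4382 in Ctx astrocytes and 10851 in Ctx NPCs. In the Ctx NPC library all 10 oligodendrocyte markers and all 10 neuron markers also passed an FPKM of 1, at summed levels of 8472 and 1322 CPM, so RNA of differentiated cell types was read there too. Hox genes, which pattern the hindbrain and spinal cord and are silent in the midbrain proper, had 61.9, 97.8 and 62.9 CPM in sum in the VM libraries without virus, titled C and titled NF, against 0.653 in Ctx astrocytes and 0.04997 in Ctx NPCs. Of 22 Hox genes, 9 had an FPKM over 1 in the VM culture without virus. The VM libraries thus held Hox RNA beside RNA of the midbrain factors.

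The transduced factors come before the rest because they check the labels. Nr4a2 had 81 reads in VM astrocytes without virus, 53 in the library titled C, 183 in the library titled NF, 106 in Ctx astrocytes and 93 in Ctx NPCs. It was highest in the library titled NF, 2.37-fold (interval 1.81 to 3.11) above the culture without virus. Foxa2 had 68, 15, 216, 1 and 0 reads in the same order. It was also highest in the library titled NF, 3.33-fold (2.52 to 4.44) above the culture without virus and 16.0-fold (9.47 to 29.0) above the library titled C. These orders follow the titles and run against the treatment entries. Factors that were not delivered were also lower in the library titled C than in the library titled NF, Otx2 by 13.5-fold and Foxa1 by 5.95-fold. The contrast of Foxa2 with the library titled C is thus not particular to a delivered factor, and the check rests on the culture without virus. The level of Nr4a2 was 8.998 CPM in the library titled NF and 4.945 CPM in Ctx astrocytes, which received no virus. Reads on the exons do not tell transcripts of the vector from those of the endogenous gene. How many reads of the delivered Foxa2 cDNA, which may be rat, mapped to the mouse gene was not measured.

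The stretches before endogenous start sites of both delivered genes are shown because the vectors lack them, together with those of Otx2 and Foxa1, the factors that differed most between the library titled C and the culture without virus. All are from RefSeq on GRCm38.p6, on the minus strand, and capitals mark motif letters where the window held any. The Otx2 stretch is chr14:48667739-48667825 and that of Foxa1 is chr12:57546206-57546292, both ending 94 bases before a start site. The Foxa1 stretch lies within the span of its gene, which reaches 57548029, so its start site is an internal one. The Foxa2 stretch is chr2:148046970-148047069 and that of Nr4a2 is chr2:57124004-57124103, both reaching a start site.
Otx2: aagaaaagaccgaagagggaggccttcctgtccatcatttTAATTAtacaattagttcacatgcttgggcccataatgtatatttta
Foxa1: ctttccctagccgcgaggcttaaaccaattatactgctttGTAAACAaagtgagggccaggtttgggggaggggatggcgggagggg
Foxa2: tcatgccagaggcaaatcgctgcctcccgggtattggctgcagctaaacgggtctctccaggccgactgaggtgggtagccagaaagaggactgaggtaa
Nr4a2: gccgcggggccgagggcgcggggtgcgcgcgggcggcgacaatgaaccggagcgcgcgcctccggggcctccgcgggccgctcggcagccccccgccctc
Motifs were searched as exact letters on both strands in 13 windows of 300 bases (250 before and 50 after a start site) that RefSeq gave for 8 of the members, not for En2 and Pax3. The Nurr1 motif AAAGGTCA was found in none of the 13, and in 1.51% of all 32851 windows. The forkhead motif TGTTTAC was in 1 window, that of Foxa1, as the reverse strand GTAAACA shown above, against 3.65% of all windows. The homeodomain motif TAATTA was in 2 windows, both of Otx2, against 5.29%, and the bicoid motif TAATCC, the core bound by Otx factors, was in 1 window of Otx2, against 7.06%. The Nr4a2 window was 81.7% G and C, and that of the outermost Otx2 start 41.7%. These matches describe letters and not bound sites.

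**Figure D1:**
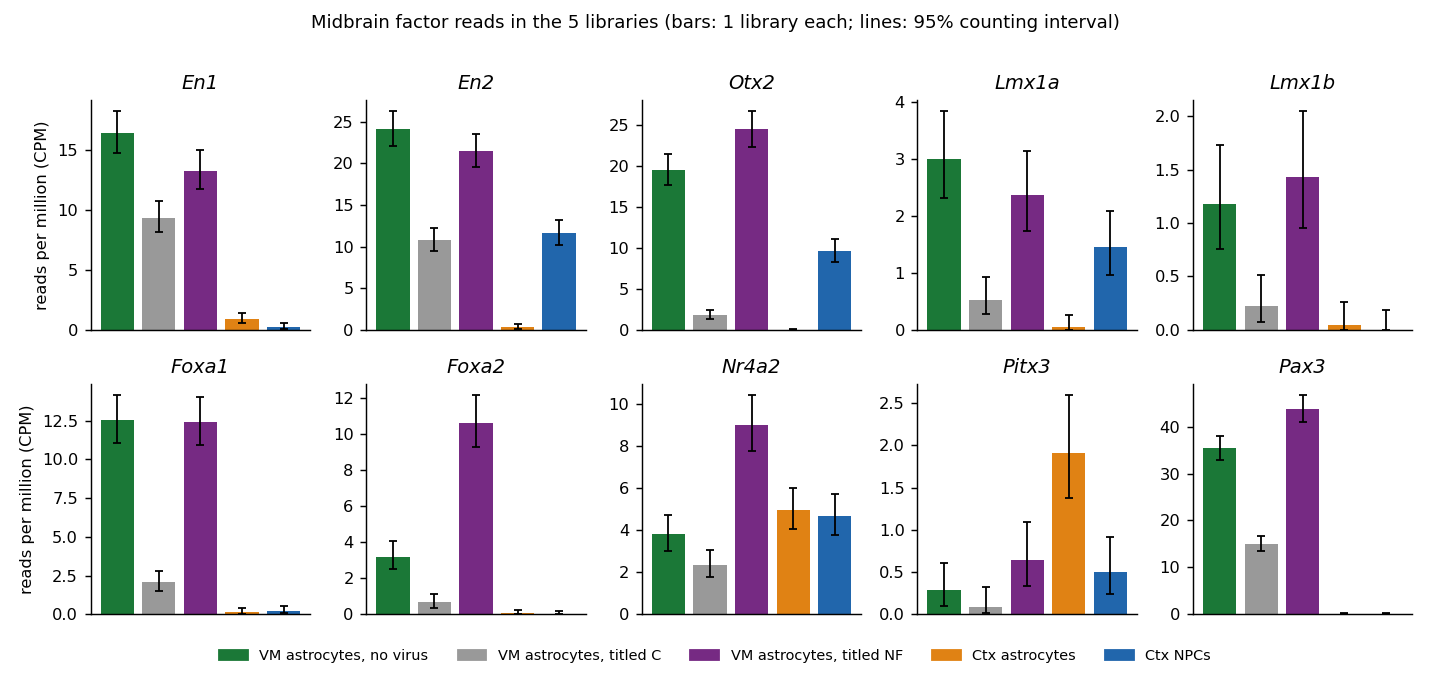
Level in CPM (reads per 1000000 counted reads, linear axes from 0) of the 10 midbrain factors in each library, 1 bar per library, with lines for the exact 95% counting interval. En1, Foxa1, Foxa2, Lmx1b and Pax3 stand above both Ctx libraries in all 3 VM libraries, and the library titled C (grey) is the lowest VM library for all 10 factors.

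Which factors VM astrocytes keep that Ctx astrocytes lack was read from the libraries without virus. A gene was called different at 2-fold with an FPKM over 1 in at least 1 of the 2 libraries. Of the 10 factors, 6 were higher in VM astrocytes (Pax3, Otx2, Foxa1, En2, Foxa2 and En1) and 1, Pitx3, was lower, while 14.4% of all 12553 transcripts past the FPKM filter were called in either direction 9.89% were higher and 4.49% lower. Nr4a2 was not called, and Lmx1a and Lmx1b did not pass the filter in this pair. The median log2 ratio of the 8 factors that passed was 5.82, against 0.05 for all transcripts. The 3 other scalings shifted the scaling of this pair by -0.06 to -0.03 on the log2 scale, and ratios with few reads moved less because reads were added.

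The Engrailed genes are factors of the border region between midbrain and hindbrain. En1 had 350 reads in VM astrocytes without virus, 211 in the library titled C, 270 in the library titled NF, 20 in Ctx astrocytes and 5 in Ctx NPCs. All VM values of En1 were above all Ctx values, and VM astrocytes without virus stood 17.6-fold (11.2 to 29.2) above Ctx astrocytes. En2 had 514, 243, 437, 7 and 232 reads in the same order. En2 thus separated the astrocyte cultures without virus by 73.9-fold (35.6 to 185). Its 11.6 CPM (10.15 to 13.2) in Ctx NPCs and 10.8 CPM (9.46 to 12.2) in the library titled C had overlapping intervals, and their order turned under TMM and DESeq2 scaling. Per transcript length, En1 and En2 did not differ beyond counting error in VM astrocytes without virus, with a ratio of FPKM of En2 to En1 of 1.06 (0.924 to 1.22). In Ctx NPCs the same ratio was 33.5 (14.2 to 104).

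Otx2, which the forebrain shares with the midbrain, had 416 reads in VM astrocytes without virus, 41 in the library titled C, 498 in the library titled NF, 0 in Ctx astrocytes and 193 in Ctx NPCs. It had no read in Ctx astrocytes, where a floor of 3 reads is 0.140 CPM and the upper end of the exact interval 0.172 CPM. VM astrocytes without virus were at least 139.5-fold higher against that floor, and the exact interval of the ratio begins at 113-fold. Pax3 had 754, 340, 889, 0 and 0 reads. It was the only factor at 0 in both Ctx libraries, and VM astrocytes without virus were at least 253-fold higher than Ctx astrocytes against the floor of 3 reads, with an exact interval that begins at 205-fold. By the gap between the lowest VM and the highest Ctx value, Pax3 ranked 1 of 13298 transcripts with an FPKM over 1 in any library, followed by Hoxa3, Hoxb2, Hoxb3 and Il19. Pax3 also marks neural crest and its melanocytes. None of the 5 melanocyte markers had an FPKM over 1 in any library, other neural crest derivatives were not read, and the part of such cells in the Pax3 values was not tested.

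The floor plate factors were present at lower levels. Foxa1, a forkhead factor that acts with Foxa2 in the floor plate, had 267, 47, 252, 3 and 4 reads in the libraries without virus, titled C, titled NF, Ctx astrocytes and Ctx NPCs. VM astrocytes without virus exceeded Ctx astrocytes by 89.6-fold (30.3 to 437), and for Foxa2, with its 68 reads against 1, by 68.4-fold (11.9 to 2742). Lmx1a, a LIM homeodomain factor that specifies dopamine progenitors, had 64, 12, 48, 1 and 29 reads. Its FPKM was at most 0.898, so it passed no filter in any library, and its value in Ctx NPCs lay between the VM libraries. Its relative Lmx1b had 25, 5, 29, 1 and 0 reads, and passed the filter only where its FPKM was 1.16, in the library titled NF. Per length, Lmx1b and Lmx1a did not differ beyond counting error in VM astrocytes without virus, with a ratio of 1.06 (0.643 to 1.72).

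The dopamine neuron factors did not follow the region. Nr4a2 was 0.769 times (0.569 to 1.04) as high in VM as in Ctx astrocytes without virus. Pitx3, which dopamine neurons need for survival, had 6, 2, 13, 41 and 10 reads in the order above. It was highest in Ctx astrocytes, 6.79-fold (2.87 to 19.6) above VM astrocytes without virus. Of 10 other genes of the dopamine neuron, 2 to 5 were at or under 3 reads in each astrocyte library and 1 in Ctx NPCs. Th, the enzyme that makes the dopamine precursor, had 3, 0, 5, 5 and 11 reads, and Slc6a3, the dopamine transporter, had 4, 3, 10, 2 and 15. Ret and Aldh1a1 passed the FPKM filter between VM and Ctx astrocytes, with 405 and 844 reads in VM astrocytes without virus and 231 and 1969 in Ctx astrocytes. Aldh1a1 was called lower in VM astrocytes and Ret was not called. Neither gene is limited to dopamine neurons. Ddc, which makes dopamine and serotonin, had 20, 7, 12, 28 and 581 reads, by far the most in Ctx NPCs.

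Over the 5 libraries, 5 factors (En1, Lmx1b, Foxa1, Foxa2 and Pax3) were higher in each of the 3 VM libraries than in both Ctx libraries, as were 16.5% of the 13298 transcripts with an FPKM over 1 in any library. A gap of at least 2-fold held for the same count of 5, against 4.78% of transcripts. Lmx1b passed the filter only through the library titled NF. Its 5 reads in the library titled C and 1 in Ctx astrocytes had overlapping intervals, of 0.072 to 0.517 and 0.00118 to 0.26 CPM. Without the library titled C the count was 7, against 22.7% of transcripts, and without the Ctx NPC library it was also 7, against 33.8%. En2 and Otx2 were the factors added in each case. With TMM or DESeq2 scaling of all 5 libraries the count was 6, En2 included. The 3 VM libraries differ in treatment and are not replicates, so these counts describe the 5 libraries.

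Other genes of the regional code were read from lists. Of 28 other transcription factors of the midbrain and its border, 16 passed the filter between VM and Ctx astrocytes without virus, and 11 were higher and 2 lower in VM astrocytes, with a median log2 ratio of 3.13 against 0.05 for all transcripts. Foxb1 had 135 reads in VM and 1 in Ctx astrocytes, Irx2 had 1230 and 15, Barhl2 had 119 and 2, and Irx5 had 936 and 56. Of 12 patterning signals, 5 passed and 3 were higher, with a median of 1.24. Shh, the signal that induces Foxa2 and the floor plate, had 1003 reads in VM and 54 in Ctx astrocytes. All 9 Hox genes that passed were higher in VM astrocytes, with a median of 6.77. Of 21 forebrain factors, 12 passed, 7 were lower and 3 higher, with a median of -1.49. Cell type markers differed between these cultures too. Astrocyte markers were lower in VM astrocytes in 6 of 10, microglia markers were higher in all 9 of the 12 that passed, and meningeal fibroblast markers were higher in 4 and lower in 1 of the 7 that passed. The summed levels in VM and Ctx astrocytes were 1967 and 4382 CPM for astrocyte, 236 and 68.9 for microglia and 2363 and 1073 for meningeal markers. Of 9 choroid plexus markers, a list that leaves out Otx2, 5 passed and all 5 were higher, with a median log2 ratio of 2.03. Their sums over the 9 were 109.9 and 16.3 CPM. The part of these cells in the differences of the factors was not tested.

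How the factors stood after transduction was read against VM astrocytes without virus, and both comparisons share that library. In the library titled NF, 2 factors were called, Foxa2 and Nr4a2, both higher and both delivered by the viruses, against 0.990% of 12428 transcripts called in either direction, 0.322% higher and 0.668% lower. None of the other 8 was called, of which Lmx1a and Pitx3 did not pass the FPKM filter. Foxa1 differed by 0.989 times (0.829 to 1.18) and En2 by 0.890 times (0.782 to 1.01), intervals that include no difference. Otx2 was 1.25-fold (1.10 to 1.43) and Pax3 1.24-fold (1.12 to 1.36) higher in CPM, and En1 was 0.808 times (0.687 to 0.950) as high, all within 2-fold. The intervals for Lmx1a, Lmx1b and Pitx3 were wider and included no difference.

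In the library titled C, all 10 factors were lower than in the culture without virus and also lower than in the library titled NF. Of the 13298 transcripts with an FPKM over 1 in any library, 43.0% had their lowest VM value in this library. At 2-fold with the FPKM filter, 5 factors were called lower than without virus (Otx2, Foxa1, Foxa2, Pax3 and En2) and none higher, against 8.48% of 12703 transcripts called lower, 7.30% called higher and 15.8% called in either direction. The median log2 ratio of the 7 factors that passed was -1.23, against -0.01 for all transcripts. Without the filter on low values 8 were past 2-fold, all lower.

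**Figure D2:**
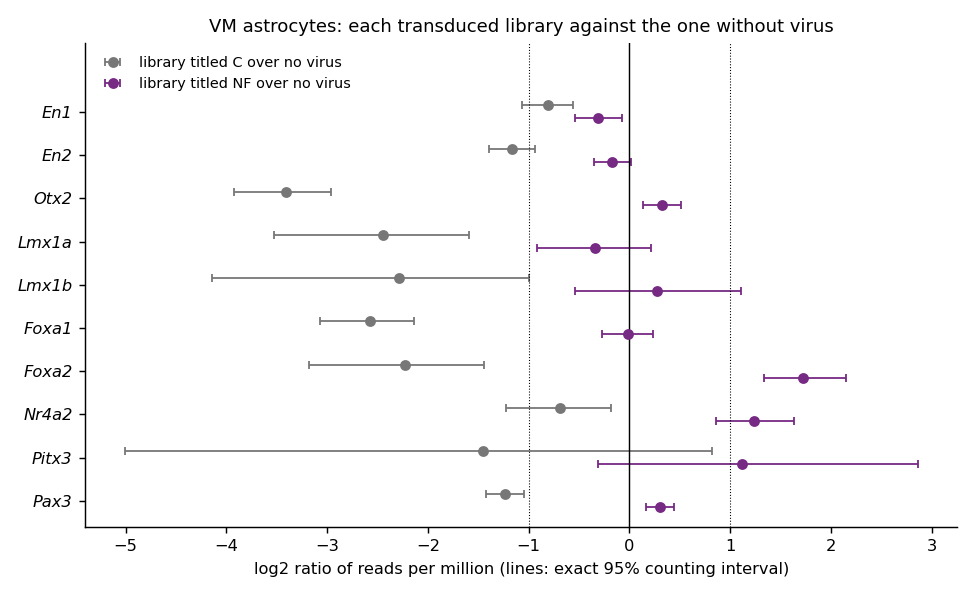
Log2 ratio of CPM of each factor in the libraries titled C (grey) and titled NF (purple) over VM astrocytes without virus, 1 library each, with lines for the exact 95% counting interval and dotted lines at 2-fold. All 10 grey points lie below 0, with Otx2 lowest at -3.41, and the purple points of Foxa2 and Nr4a2 lie at 1.73 and 1.24.

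The size of the difference was unequal among the factors. Otx2 was 10.7-fold (7.78 to 15.2) lower in the library titled C than without virus, and Foxa1 6.02-fold (4.40 to 8.39). Lmx1a was 5.65-fold (3.02 to 11.5), Lmx1b 5.29-fold (1.99 to 17.7) and Foxa2 4.8-fold (2.72 to 9.04) lower in CPM, of which Foxa2 alone passed the FPKM filter. En1 was 1.76-fold (1.48 to 2.09), En2 2.24-fold (1.92 to 2.62) and Pax3 2.35-fold (2.06 to 2.68) lower. The counting intervals of Otx2 and Foxa1 do not overlap those of En1, En2 and Pax3. Nr4a2 was 1.62-fold (1.13 to 2.33) lower, and the 2 reads of Pitx3 against 6 gave 3.18-fold with an interval of 0.568 to 32.2.

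Ratios between factors of the same library do not depend on the scaling of libraries. The FPKM ratio of Otx2 to En1 was 1.36 (1.18 to 1.57) without virus, 0.222 (0.155 to 0.312) in the library titled C and 2.11 (1.82 to 2.46) in the library titled NF. That of Foxa1 to En1 was 0.611 (0.519 to 0.719), 0.179 (0.127 to 0.246) and 0.748 (0.628 to 0.892) in the same order. Both ratios were lowest in the library titled C, with intervals clear of the other VM libraries. The ratio of Pax3 to En2 was 1.53 (1.37 to 1.72), 1.46 (1.24 to 1.73) and 2.13 (1.90 to 2.39), and the intervals of the libraries without virus and titled C overlap. The ratio of Foxa2 to Foxa1, a delivered and a not delivered forkhead factor, was 0.381 (0.288 to 0.499) without virus, 0.478 (0.248 to 0.869) titled C and 1.28 (1.07 to 1.54) titled NF.

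**Figure D3:**
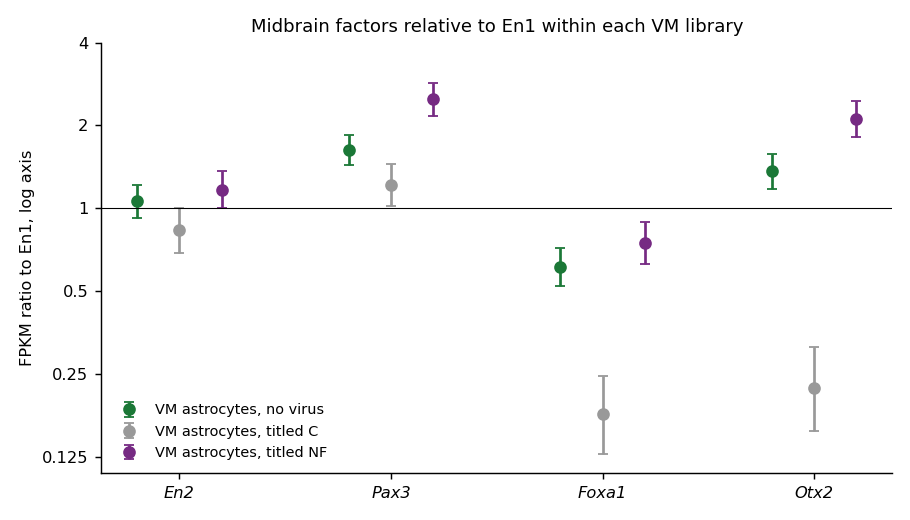
FPKM of En2, Pax3, Foxa1 and Otx2 divided by the FPKM of En1 within each VM library, on a log axis, with lines for the exact 95% counting interval. Foxa1 and Otx2 fall to 0.179 and 0.222 in the library titled C (grey), while En2 stays at 0.832.

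The order of the factors by FPKM changed with these differences. Without virus the order was Pax3 at 10.5, Otx2 at 8.74, En2 at 6.82, En1 at 6.43, Foxa1 at 3.93, Foxa2 at 1.498, Nr4a2 at 1.20, Lmx1b at 0.957, Lmx1a at 0.898 and Pitx3 at 0.204. In that order En2 and En1 did not differ beyond counting error, nor did Foxa2 from Nr4a2, Nr4a2 from Lmx1b or Lmx1b from Lmx1a, while Lmx1a stood 4.41-fold (1.92 to 12.4) above Pitx3. In the library titled C, Otx2 stood at 0.814 behind Pax3 (4.45), En1 (3.66) and En2 (3.04), and could not be told from Nr4a2 at 0.739. In the library titled NF, Foxa2 stood at 4.98 and did not differ beyond counting error from En1 at 5.19, with a ratio of 1.04 (0.868 to 1.25).

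Cell type markers moved with the library titled C, and in bulk RNA fewer cells of a type and less RNA per cell cannot be told apart. The 7 ependymal markers, of ciliated cells lining the ventricles, had 358 CPM in sum without virus, 67.0 in the library titled C and 337 in the library titled NF, and all 4 that passed the filter were lower in C than without virus. A list of 9 choroid plexus markers besides Otx2, which that epithelium also expresses, had 109.9, 24.1 and 93.2 CPM, and all 5 that passed were lower in C than without virus, with a median log2 ratio of -3.25. Ttr, a carrier protein that choroid plexus makes in large amounts, had 953, 106, 683, 0 and 1 reads in the libraries without virus, titled C, titled NF, Ctx astrocytes and Ctx NPCs. In Ctx NPCs, where Otx2 had 193 reads, 6 of the 9 choroid plexus markers were at or under 3 reads. The others there, Folr1, Cldn2 and Aqp1, had 19, 17 and 38 reads. The 12 microglia markers moved the other way, with 236, 983 and 160 CPM in sum in the VM libraries, and 10 of the 11 that passed were higher in C than without virus. Oligodendrocyte markers had 286, 463 and 234 CPM in sum, of which Cnp gave 215, 164 and 191. Of the 9 that passed, 7 were higher in C than without virus and none lower, with a median log2 ratio of 2.26. Neuron markers were higher in 4 of the 7 that passed and lower in none, with a median of 1.38. Their sums were 720, 598 and 620 CPM, of which Stmn2 gave 581, 359 and 477. Meningeal fibroblast markers had 2363, 1430 and 2566 CPM in sum, and 1 was higher and 2 lower of the 7 that passed. Mural markers had 1413, 721 and 1287 CPM, with 2 of 4 lower, and endothelial markers 67.7, 134.9 and 79.8 CPM, with 2 of 3 higher and 1 lower. Astrocyte markers had 1967, 1682 and 1719 CPM, with 1 of 10 higher (S100b, 449 reads without virus and 1093 titled C) and 1 lower (Aldh1l1, 7446 and 2249). The part of these cell types in the differences of the factors was not tested.

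Regional lists did not move as a block in the library titled C. Of 10 Hox genes that passed the filter, 4 were higher in C than without virus (Hoxa4, Hoxb5, Hoxa3 and Hoxa5) and none lower, with a median log2 ratio of 0.61. Hoxa3 had 175, 488 and 178 reads and Hoxa4 had 69, 259 and 53 in the libraries without virus, titled C and titled NF. Among other midbrain and border factors 4 of 15 were lower (Foxb1, Barhl2, Msx1 and Pax2) and none higher, with a median of -0.52. Of 5 patterning signals, 3 were lower, with Shh at 1003, 263 and 750 reads and Rspo2, a secreted Wnt enhancer, at 80, 3 and 103. Forebrain factors were lower in 7 of 10, with a median of -1.92.

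**Figure D4:**
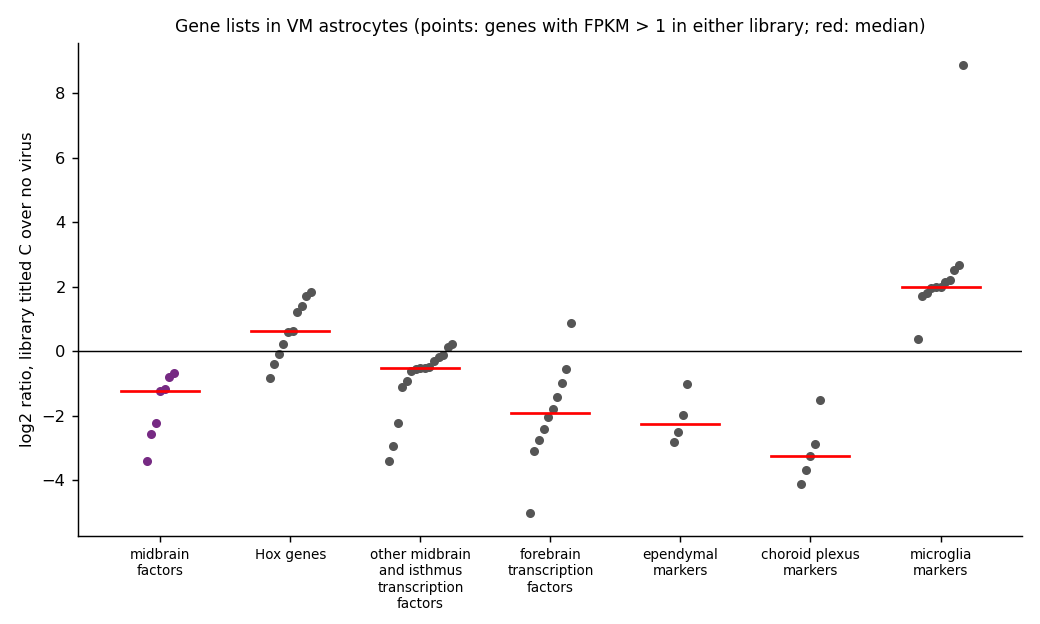
Log2 ratio of the library titled C over VM astrocytes without virus for each gene with an FPKM over 1 in either library, by list, with the median of each list as a red line. The medians are -1.23 for the midbrain factors, 0.61 for Hox genes, -2.25 for ependymal, -3.25 for choroid plexus and 1.99 for microglia markers.

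Between the libraries titled NF and C, the pair with and without the delivered factors by title, 8 of the 10 factors passed the FPKM filter. Of these, 6 were higher in NF (Foxa2, Otx2, Lmx1b, Foxa1, Nr4a2 and Pax3) and none lower. Among all 12701 transcripts past the filter, 9.53% were higher, 9.73% lower and 19.3% called in either direction. This comparison uses the C library of the preceding one. Otx2 was 13.5-fold (9.79 to 19.0), Foxa1 5.95-fold (4.34 to 8.30), Lmx1b 6.43-fold (2.46 to 21.3), Pax3 2.90-fold (2.56 to 3.30) and Nr4a2 3.83-fold (2.81 to 5.30) higher. En2 lay at the cutoff, at 1.99-fold (1.70 to 2.34), and was called with TMM scaling. Side by side, the log2 ratio of Otx2 was 3.73 for NF over C, 0.33 for NF over no virus and -3.41 for C over no virus, and that of Foxa1 was 2.56, -0.02 and -2.58. For the delivered factors the same values were 3.95, 1.73 and -2.23 for Foxa2 and 1.93, 1.24 and -0.69 for Nr4a2. Without the library titled C, the contrast of NF rests on the culture without virus, where Foxa2 and Nr4a2 alone were called. With the treatment entries in place of the titles, each direction between NF and C reverses.

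In Ctx NPCs against Ctx astrocytes, 4 of the 10 factors passed the FPKM filter. Of these, Otx2 and En2 were higher, Pitx3 was lower and Nr4a2 was not called. Among all 12623 transcripts past the filter, 38.0% were called in either direction, 20.1% higher and 17.9% lower. Otx2 was at least 68.9-fold higher against the floor of 3 reads in Ctx astrocytes, with an exact interval that begins at 55.5-fold, and En2 was 35.5-fold (17.0 to 89.3) higher. The 29 reads of Lmx1a against 1 gave 31.1-fold (5.15 to 1269), under the FPKM filter. Nr4a2 was 0.940 times as high (0.704 to 1.25). En1, Foxa1, Foxa2, Lmx1b and Pax3 had at most 5 reads each in Ctx NPCs. The other scalings shifted the scaling of this pair by -0.18 to -0.17 on the log2 scale, and ratios with few reads moved less because reads were added. The median over all transcripts was 0.19 with library totals.

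Profiles over the 5 libraries were compared by the root mean square distance of centred log2 CPM, a measure from 5 values that share library and culture. En1 was nearest to Irx5 at 0.133. Foxa1 had Foxb1 among its nearest at 0.412, and Foxa2 was nearest to Foxb1 at 0.789. Lmx1b was nearest to Sncg at 0.317 and Pi15 at 0.334. Nr4a2 was nearest to Ddn at 0.138 and Plcxd2 at 0.238, and Pitx3 to Minar2 at 0.304. En2 was nearest to Hhip at 0.408. Otx2 and Pax3 had no close match, with Rspo2 at 1.56 and Ttr at 1.07 as their nearest. Among the factors themselves the closest pairs were En1 with Lmx1b at 0.707, Lmx1b with Foxa1 at 0.803 and Foxa1 with Foxa2 at 0.985.

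Nr4a2 is also an immediate early gene, switched on within a short time of stimulation. Its relatives Nr4a1 and Nr4a3 had 754 and 49 reads without virus, 361 and 13 in the library titled C, and 757 and 81 in the library titled NF. In the list of 12 immediate early genes and relatives, 9 passed between NF and no virus. All 9 were higher in NF and none was called, with a median log2 ratio of 0.42 against -0.05 for all transcripts. Nr4a2 itself was at 1.24. Between C and no virus 10 passed, of which 5 were lower and 3 higher. Egr1 had 11929, 3626 and 17014 reads and Atf3 had 635, 1903 and 740 in the libraries without virus, titled C and titled NF.

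By RefSeq on GRCm38.p6, the genes lie on chromosome 1 from 120602487 to 120607991 for En1, from 167688230 to 167848741 for Lmx1a and from 78101267 to 78197136 for Pax3. Chromosome 2 holds Lmx1b from 33560965 to 33641208, Nr4a2 from 57106830 to 57124003 and Foxa2 from 148042877 to 148046969. En2 is on chromosome 5 from 28165696 to 28172190, Foxa1 on chromosome 12 from 57540628 to 57548029, Otx2 on chromosome 14 from 48656781 to 48667644 and Pitx3 on chromosome 19 from 46135281 to 46148325. In GENCODE transcripts, no 50-base stretch of a factor was shared with another of the 10, paralogs included. At most 0.561% of such stretches (Pax3) occurred in any other gene. The GENCODE transcripts can differ from the RefSeq ones that were counted. That of Lmx1b held 4741 stretches, while its counted transcript has 1227 bases. Annotated genes overlap Lmx1b, Foxa1, Nr4a2 and Pitx3, and whether reads were counted by strand is not given in the sources used here. The gene overlapping Pitx3, Elovl3, had 0, 8, 0, 0 and 1 reads in the libraries without virus, titled C, titled NF, Ctx astrocytes and Ctx NPCs.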

How the data were processed

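Each of the 5 libraries was deposited as a table of raw read counts and FPKM per RefSeq transcript. The authors trimmed reads at a quality score under 20, mapped them with STAR to GRCm38/mm10 and counted reads on exons with HTSeq-count. The submitters' processing notes name mm9, so coordinates are given as RefSeq's on GRCm38.p6. The deposited FPKM is the count per transcript length and library total, to within a relative difference of 4.095e-05 when recomputed.

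Symbols were matched for 19997 of 20178 transcripts. Counts were scaled to library totals, 0.5 reads were added for log2 ratios, and a transcript was called at 2-fold with FPKM over 1 in at least 1 of the 2 libraries. Ratios have exact Clopper-Pearson intervals and counts exact Poisson intervals at 95%, and they leave out every other error, PCR copies of a molecule included. A fold against 0 reads is a bound against 3 reads per library. Alternatives were edgeR's TMM, DESeq2's size factors, upper-quartile scaling, 5 reads added, other filters and cutoffs, and exchanged labels. The calculations were tested on simulated counts.

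The members and lists were chosen with earlier results of these data known, and the choroid plexus list was added after these values were seen. The genes named are the members, their 2 nearest profiles, the 5 widest gaps between regions, list genes past 2-fold (at most 4 a list) and neighbouring genes. Further genes (Th, Ddc, Ret, Aldh1a1, Slc6a3, Ttr, Egr1, Atf3, Nr4a1, Nr4a3, Rax, Six3 and the groups' marker lists) were named after their values were seen, and some genes that the rule gives are not reported here. Scaling factors came from edgeR 4.0.16 and DESeq2 1.42.0 in R 4.3.3, intervals from scipy 1.17.1, and tables and plots from pandas 2.3.3, numpy 2.4.6 and matplotlib 3.10.9 in Python 3.11.15. Protein sequences of the paralogs were not analysed here.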

Additional observations from a re-analysis of the deposited data

How the results depend on the processing

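With 1 library per condition no library could be left out within a condition, and no paired analysis was possible because no condition had replicates. Under TMM, DESeq2 and upper-quartile scaling all 47 log2 ratios of the factors stayed within their counting intervals, and with 5 reads added 44 of 47 did. With FPKM over 1 required in both libraries the count of factors past 2-fold was 0 for VM over Ctx astrocytes, 1 for NF over C, 2 for C over no virus and 0 for Ctx NPCs over Ctx astrocytes, since most factors are low in 1 library of each pair. Without a filter on low values it was 8 for C over no virus and 7 for Ctx NPCs over Ctx astrocytes. At a 3-fold cutoff it was 1 for NF over no virus and 3 for C over no virus. With the treatment entries in place of the titles, the 6 factors higher in NF than in C became lower by construction, with log2 ratios of -3.73 for Otx2, -2.56 for Lmx1b, -2.56 for Foxa1, -3.95 for Foxa2, -1.93 for Nr4a2 and -1.53 for Pax3. At these depths a factor with 3 reads or fewer (0.133 to 0.1499 CPM) was not measurable.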

Other observations

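Factors of the diencephalon and eye field were also read in the VM cultures. Rax, an early factor of the eye field and hypothalamus, had 169 reads in VM astrocytes without virus, 5 in the library titled C and 135 in the library titled NF, and 0 in both Ctx libraries. Six3, a forebrain factor, had 234, 36 and 242 reads in the VM libraries, 47 in Ctx astrocytes and 463 in Ctx NPCs. Both had their lowest VM value in the library titled C, as did the midbrain factors.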
